A study of Rattus norvegicus with 12 samples.

Results

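The transcripts described here encode the proteins that cut introns out of precursor messenger RNA and the RNA-binding proteins that steer that process. They were taken as all probe sets whose platform annotation gave a single symbol starting with Srsf, Srrm, Hnrnp, Sf3, Snrnp, Snrp or Prpf. That gave 110 of the 31042 probe sets tested and 67 of 14217 named genes. Hnrnp held 31 probe sets, Srsf 20, Prpf 19, Sf3 13, Snrp 11, Snrnp 10 and Srrm 6. The rule used names and no measured value. A further 8 probe sets that share a symbol of these families with another gene were left out, which leaves genes such as Hnrnpk, Snrpc and Snrpg without a member. Of 85 protein-coding genes with these prefixes in the RefSeq table, 66 had a member probe set, and the remaining member symbol was the pseudogene Srsf7-ps4.

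The arrays measured RNA of the basolateral amygdala, a forebrain region of mostly glutamatergic neurons, in male Long-Evans rats aged 2 to 3 months and housed singly with free chow and water. For 14 days, 2 times a day, the sucrose group could drink up to 4 mL of a 30% sucrose solution from an added bottle, which held water for the control group. Tissue was taken on the morning of day 15, and each array holds the amygdalae of 2 rats of one group, so that 24 rats gave 6 sucrose and 6 control arrays. The comparison asks which transcripts differ after repeated small sucrose drinks. Each pool is a separate sample, n is 6 arrays per group throughout, and the number of arrays limits the precision.

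Splicing is carried out by the spliceosome, which is assembled on each intron from small nuclear ribonucleoprotein particles, and neurons use it to make many isoforms of channels, receptors and adhesion proteins. SR proteins mostly bind exonic enhancers and recruit the splicing machinery, while hnRNP proteins coat nascent RNA and often repress nearby splice sites. Many of these genes also adjust their own transcripts by including exons or introns that mark them for decay, so that different parts of one gene can be measured at different levels.

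All values are log2 of the ratio of an array to the mean of the 6 control arrays of the same probe set, and each difference is sucrose minus control, given with its standard error (SE) from limma fitted to all probe sets. A ratio keeps no absolute level, so whether a probe set was above background could not be seen, levels of different genes could not be compared, and the labelled tissue could not be checked against its markers. In tissue, fewer cells of a type and less RNA per cell cannot be told apart. Probe sets are not independent replicates, since those of one gene measure the same RNA. Genes such as Hnrnpa1 have many near-identical copies in the genome, and their probe sets may pick up related transcripts.

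The differences of the splicing genes were centred close to 0, and none passed the correction. The median difference over the 110 probe sets was -0.0113, against -0.00542 over all 31042. The median size of the difference, in either direction, was 0.0278 on the log2 scale, against 0.0374. At an adjusted p under 0.05 limma called 0 members, and it called 0 of all probe sets (0%), where the lowest adjusted p of a member was 0.231. Without adjustment 9 members had a p under 0.05, beside 7.57% of all probe sets. Of these 6 were higher after sucrose, 5.45% of the 110 against 4.50% of all probe sets. The other 3 were lower, 2.73% against 3.07%. These shares are near the background and say nothing particular about the family. The 95% interval of the difference lay within 1.2-fold in both directions for 99 of the 110 (90.0%), against 89.7% of all probe sets. In direction, 41 members were above 0 and 69 below, which is 37.3% above, against 45.7% over all probe sets.

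**Figure D1:**
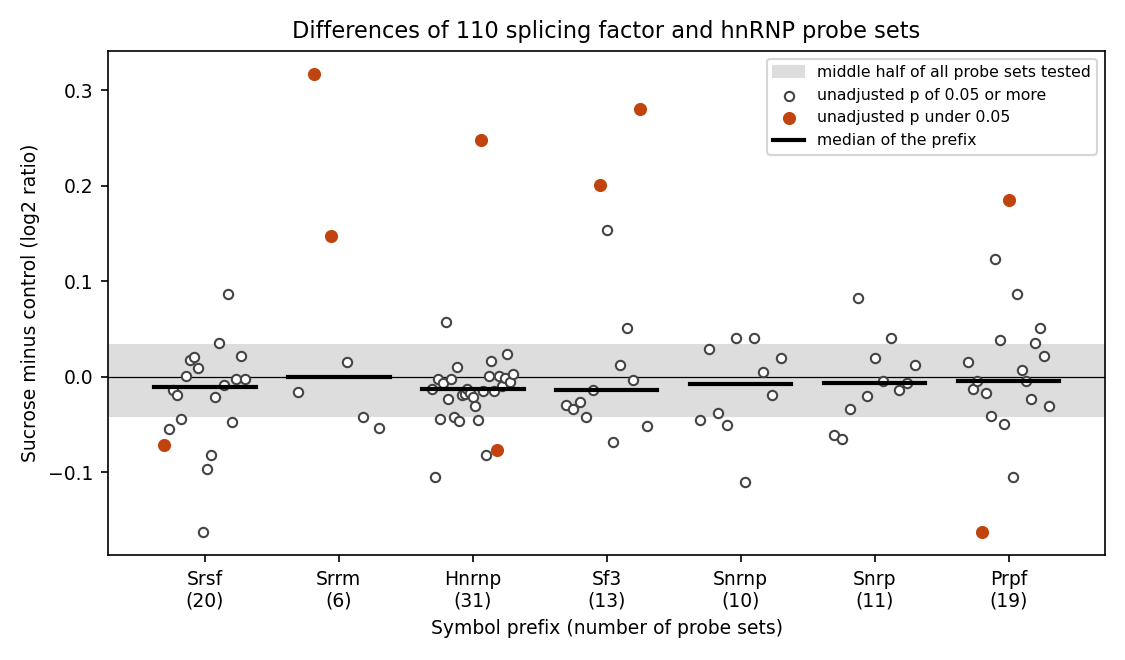
Difference between sucrose and control arrays (log2 ratio, y axis) for each of the 110 probe sets, arranged by symbol prefix (x axis), with the median of each prefix as a bar and the range between the quartiles of all 31042 probe sets as a grey band. All 7 medians lie within the grey band, and the 9 filled points, with unadjusted p under 0.05, lie in Srsf, Srrm, Hnrnp, Sf3 and Prpf.

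The 7 prefixes had medians in a narrow range but differed in how far their probe sets spread. The medians were -0.01 for Srsf, Hnrnp, Sf3, Snrnp and Snrp, and -0.00 for Srrm and Prpf. Snrp was the most compact, with differences from -0.06 to 0.08, and Snrnp ran from -0.11 to 0.04. Srrm ran from -0.05 to 0.32, Sf3 from -0.07 to 0.28, Hnrnp from -0.105 to 0.25, Prpf from -0.16 to 0.19 and Srsf from -0.16 to 0.09. Differences above 0.1 in size occurred for 2 of 6 Srrm, 3 of 13 Sf3, 4 of 19 Prpf, 2 of 31 Hnrnp, 1 of 20 Srsf, 1 of 10 Snrnp and 0 of 11 Snrp probe sets. Over all probe sets this share was 12.9%, and it was 11.8% of the members. No test between prefixes was made, because probe sets are not replicates of a condition.

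Array by array, the prefix medians of the groups overlapped for each of the 7 prefixes. The median of all members ran from -0.0391 to 0.0137 in sucrose and from -0.0194 to 0.0192 in control arrays. For Hnrnp the array medians ran from -0.0494 to 0.0151 in sucrose and from -0.0351 to 0.0158 in control arrays. The Srsf median was lowest in control array 5 (-0.0687) and in sucrose array 1 (-0.0644). The Srrm median ranged most widely among the controls, from -0.136 in array 5 to 0.0688 in array 4. In control array 5 the medians of Snrnp and Snrp were, in contrast, 0.0454 and 0.0374, the highest of the 12 arrays for both. Control array 5 held the lowest value of 27 members (24.5%, against 12.1% of all probe sets) and sucrose array 1 that of 22 (20.0% against 12.9%).

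**Figure D2:**
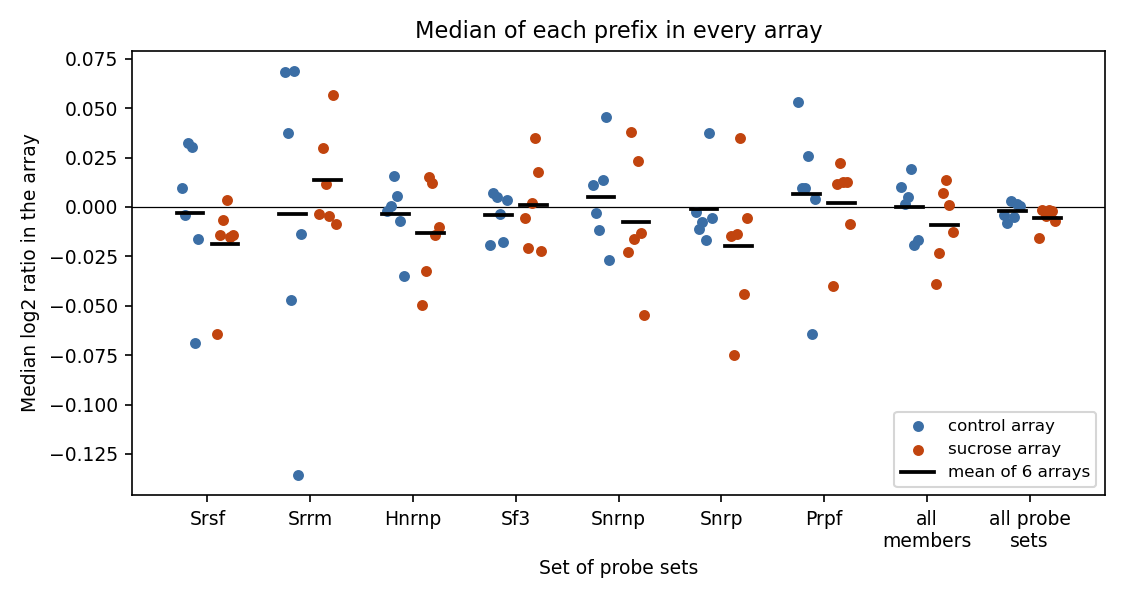
Median log2 ratio (y axis) of each prefix, of all members and of all probe sets (x axis) in each of the 6 control and 6 sucrose arrays, with the mean of each group as a bar. The points of the groups overlap for each set, and the widest spread is that of Srrm in the controls, from -0.136 to 0.0688.

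SR proteins, encoded by Srsf genes, had 7 probe sets above and 13 below 0. The probe set of lowest p was 1368212_at of Srsf11, an SR-related protein that acts early in splice site choice. It ran from -0.13 to -0.03 in sucrose arrays (median -0.07) and from -0.07 to 0.06 in controls (median -0.00). The sucrose arrays were lower, with overlapping ranges, and the difference was -0.07 ± 0.03 (SE, adjusted p = 0.612 in limma). The second Srsf11 probe set, 1382056_at, was the highest of the prefix at 0.09 ± 0.05 (adjusted p = 0.774), and 0.0510 without control array 5.

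The lowest Srsf value was that of Srsf3, the smallest SR protein, which also acts in messenger RNA export. Its single member probe set, 1379010_at, ran from -0.29 to 0.05 in sucrose arrays with a median of -0.20. In controls it ran from -0.29 to 0.27 with a median of -0.00, so the ranges overlapped almost fully, although 5 of 6 sucrose arrays were below -0.1. The difference was -0.16 ± 0.09 (adjusted p = 0.718), and -0.107 without control array 1. Srsf10, known as a repressor of splicing once dephosphorylated, had 5 probe sets with differences from -0.08 to 0.02. Its probe set 1380269_at was among the 3 most variable members, and control array 3 stood at 0.498 while the other controls lay between -0.318 and -0.0303.

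The best known SR proteins differed little between groups. Srsf1, a founding member that binds purine-rich enhancers, had differences of -0.01 ± 0.03 and 0.02 ± 0.04 in its 2 probe sets. Srsf2, a marker of nuclear speckles, differed by -0.04 ± 0.04 and -0.02 ± 0.03. Srsf5 differed by -0.05 ± 0.03, Srsf7 by -0.02 ± 0.04, Srsf4 by 0.03 ± 0.03 and Srsf9 by 0.01 ± 0.04. The 3 probe sets of Srsf6 ran from -0.05 to 0.02. The 95% intervals of Srsf1, Srsf2, Srsf4, Srsf5, Srsf6, Srsf7 and Srsf9 lay between -0.131 and 0.111, within 1.2-fold. The pseudogene Srsf7-ps4 differed by -0.10 ± 0.07.

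Srrm genes encode large coactivators rich in serine and arginine that bridge SR proteins and the splicing machinery. Srrm1 held the member of lowest p. In sucrose arrays 1 to 6 its probe set 1377914_at was at 0.38, 0.41, 0.27, 0.33, 0.27 and 0.21. In control arrays 1 to 6 it was at -0.02, 0.15, -0.12, 0.15, -0.18 and -0.02. Each sucrose array lay above each control array, by 0.0554 at the narrowest point. The difference was 0.32 ± 0.06, a ratio of 1.25, and it failed the correction (adjusted p = 0.231). A second Srrm1 probe set, 1389995_at, ran from 0.07 to 0.27 after sucrose and from -0.22 to 0.11 in controls, with overlapping ranges and a difference of 0.15 ± 0.06 (adjusted p = 0.603). The third, 1371425_at, differed by -0.02 ± 0.03 (95% interval -0.09 to 0.06).

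Srrm2, a scaffold of nuclear speckles, differed by 0.02 ± 0.04 and -0.05 ± 0.04 in its 2 probe sets, the latter (1398940_at) the lowest of the prefix. Srrm3, which in mouse promotes the inclusion of very short neuronal exons, differed by -0.04 ± 0.04.

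Among hnRNP genes 8 probe sets were above and 23 below 0. Hnrnpa1, whose protein binds splicing silencers, held the one that stood apart. In sucrose arrays 1 to 6 its probe set 1375612_at was at 0.41, 0.34, 0.20, 0.17, 0.18 and 0.17, and in control arrays 1 to 6 at -0.03, 0.02, 0.06, 0.09, -0.15 and 0.00. The ranges did not overlap, with a gap of 0.0834. The difference was 0.25 ± 0.05 (adjusted p = 0.312). The other Hnrnpa1 probe sets, 1372693_at and 1387872_at, differed by -0.02 ± 0.06 and 0.00 ± 0.03, with 95% intervals of -0.15 to 0.12 and -0.07 to 0.07.

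The median size of the difference over the 31 Hnrnp probe sets was 0.0173, and most other genes of the prefix lay close to 0. Hnrnpa2b1, whose protein also carries RNA into dendrites, had 4 probe sets from -0.02 to -0.00, and the 5 of Hnrnpa3 ran from -0.03 to 0.02. The 3 of Hnrnpu, a nuclear scaffold protein, ran from -0.04 to -0.00. Hnrnpc, which binds runs of uridine, differed by -0.05 ± 0.03. Hnrnpl, which binds CA repeats, differed by 0.02 ± 0.03, and the G-run binding Hnrnpf and Hnrnph1 by 0.06 ± 0.04 and -0.01 ± 0.03. Hnrnpa0, Hnrnpab, Hnrnpr and Hnrnpul1 lay between -0.02 and 0.00, Hnrnpm at -0.04 ± 0.04, the pair of Hnrnph3 at -0.05 and -0.01, and the 3 probe sets of Hnrnpdl between -0.08 and 0.01.

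The lowest of the prefix was Hnrnpd, whose protein is known for the decay of AU-rich messenger RNA, at -0.105 ± 0.053 (adjusted p = 0.701). Hnrnpll, which in mouse controls splicing of a T-cell phosphatase gene, had its probe set 1391475_at between -0.18 and -0.02 in sucrose arrays (median -0.05) and between -0.05 and 0.09 in controls (median -0.01). The sucrose values were lower with overlap, and the difference was -0.08 ± 0.04 (adjusted p = 0.658).

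Sf3 genes encode the SF3a and SF3b complexes, which hold the U2 particle on the branch point of the intron. Sf3b1, the subunit that contacts the branch region, had the widest spread of any member. Its probe set 1389840_at was at 0.78 in sucrose array 1 and between 0.12 and 0.28 in the other sucrose arrays. In controls it ran from -0.17 to 0.12. The groups did not overlap, but the gap was only 0.00124, and sucrose array 1 stood far from the rest. The difference was 0.28 ± 0.10 (adjusted p = 0.556), and 0.18 without sucrose array 1. The other Sf3b1 probe sets, 1382691_at and 1390234_at, differed by 0.15 ± 0.10 and -0.05 ± 0.04. The first of these was 0.0776 without control array 5, and the second was -0.0286 without sucrose array 2.

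Sf3b2, which binds beside the branch point, was measured by a pair of probe sets. Of these, 1377070_at ran from 0.01 to 0.45 in sucrose arrays (median 0.19) and from -0.23 to 0.14 in controls (median -0.01). The ranges overlapped, and the difference was 0.20 ± 0.08 (adjusted p = 0.568), while 1388614_at differed by 0.01 ± 0.03. The other SF3b subunits Sf3b3, Sf3b4, Sf3b5 and Sf3b6 had 1 probe set each, with differences from -0.03 to -0.01. In SF3a the 2 probe sets of Sf3a1 differed by -0.04 ± 0.04 and -0.00 ± 0.04, Sf3a2 by -0.07 ± 0.04 and Sf3a3 by 0.05 ± 0.03.

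Snrp genes encode the Sm ring, the protein core shared by most spliceosomal particles, and the proteins A, A-prime and B-double-prime of the U1 and U2 particles. All 11 probe sets had intervals within 1.2-fold. The lowest p was that of Snrpd3, an Sm ring subunit, whose probe set 1371848_at ran from -0.12 to -0.02 in sucrose arrays and from -0.09 to 0.08 in controls, with overlap and a difference of -0.06 ± 0.03 (adjusted p = 0.718). Another ring subunit, Snrpd1, was at the other end with 0.08 ± 0.08 in 1379320_at and 0.02 ± 0.06 in its second probe set. Snrpd2 differed by -0.06 ± 0.04, Snrpe by -0.03 ± 0.03, Snrpf by -0.02 ± 0.06 and Snrpb by -0.00 ± 0.03. Snrpn, an imprinted gene whose protein replaces the common B protein in neurons, differed by 0.04 ± 0.07. Snrpa, Snrpa1 and Snrpb2 lay between -0.01 and 0.01.

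Snrnp genes encode proteins of single particles, and all 10 probe sets likewise had intervals within 1.2-fold. The U5 protein gene Snrnp40 gave the lowest value. Its probe set 1377985_at ran from -0.33 to -0.01 in sucrose arrays and from -0.11 to 0.07 in controls, with overlap, the lowest being sucrose array 5. The difference was -0.11 ± 0.05 (adjusted p = 0.659), and -0.0666 without sucrose array 5. Its other 2 probe sets differed by -0.05 ± 0.06 and 0.03 ± 0.04. Snrnp70, the U1 protein that meets the SR proteins at the start of the intron, differed by -0.05 ± 0.04, and Snrnp200, the helicase that unwinds the paired U4 and U6 RNAs, by 0.01 ± 0.03. Both probe sets of Snrnp48, a protein of the minor spliceosome, were at 0.04, one of them (1382466_at) being the highest of the prefix. The pair of Snrnp25, another minor spliceosome protein, differed by -0.02 and 0.02, and Snrnp27 by -0.04 ± 0.03.

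Prpf genes encode factors first known from yeast splicing mutants. Prpf38b, related to a factor needed to activate the spliceosome, was the one gene with probe sets past an unadjusted p of 0.05 in opposite directions. Its probe set 1385455_at ran from -0.02 to 0.40 in sucrose arrays (median 0.21) and from -0.21 to 0.08 in controls (median 0.03). Sucrose arrays were mostly higher, but the ranges overlapped. The difference was 0.19 ± 0.07 (adjusted p = 0.552). Its probe set 1374500_at ran from -0.37 to -0.02 after sucrose (median -0.15) and from -0.16 to 0.10 in controls (median 0.01). The difference was -0.16 ± 0.06 (adjusted p = 0.586), again with overlap. The third, 1379691_at, differed by 0.12 ± 0.09, by 0.0467 without control array 5 and by 0.0741 without sucrose array 1.

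Prpf8, the scaffold of the catalytic centre, differed by 0.02 ± 0.03, and Prpf19, a ubiquitin ligase of the active spliceosome, by 0.02 ± 0.03. Prpf6, which bridges particles, differed by 0.01 ± 0.03, and the U4 and U6 protein genes Prpf4 by -0.02 ± 0.03 and Prpf3 by -0.05 to 0.04 in 3 probe sets. Prpf4b, a kinase, had 4 probe sets from -0.10 to 0.05. Prpf18, which acts in the second step of splicing, differed by 0.09 ± 0.05 and -0.03 ± 0.04 in its pair. Prpf38a and Prpf39 each differed by -0.00 and Prpf40b by -0.04 ± 0.04.

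**Figure D3:**
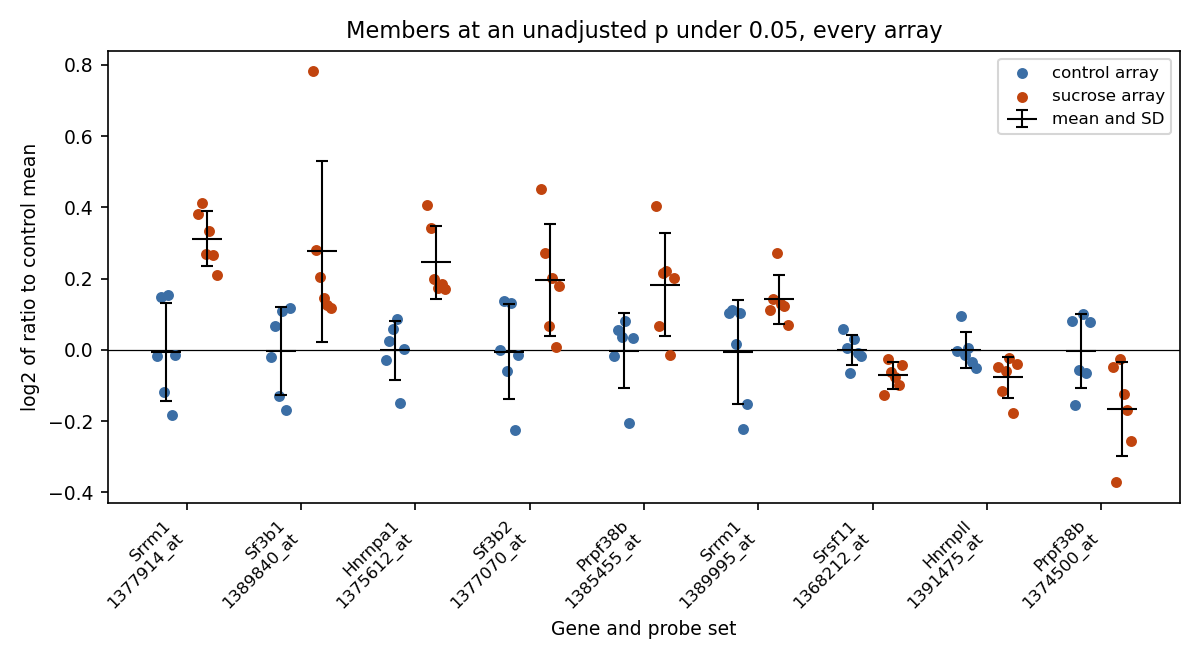
Log2 ratio to the control mean (y axis) in each control and sucrose array for the 9 member probe sets at an unadjusted p under 0.05 (x axis), with mean and SD per group. The groups are apart for 1377914_at of Srrm1, 1389840_at of Sf3b1 and 1375612_at of Hnrnpa1, and overlap for the other 6.

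Complete separation of the groups upward was seen for these 3 members (2.73%), against 0.296% of all probe sets, and downward for 0, against 0.129%. The Sf3b1 separation rested on its gap of 0.00124. In the authors' deposited table of 145 probe sets, 2 were members, which is 1.82% of the 110, against 0.467% of all probe sets. Both counts are small, 3 and 2 probe sets, and the 2 deposited members are among the 3 separated ones. No test of these shares was made. The authors' deposited table gives 1377914_at of Srrm1 a mean ratio of 1.24 after sucrose with a p of 0.00118, and 1389840_at of Sf3b1 a mean ratio of 1.23 with a p of 0.0447. These values come from the same 12 arrays and are no second measurement.

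Some genes had probe sets on both sides of 0. Of the 67 genes 24 had more than 1 probe set, and 16 of these had values on both sides of 0. Another 5 had all below and 3 all above. The like share over all genes with several probe sets was not computed, so this count says nothing particular about the family. Small differences around 0 are included, as in Srsf1 with -0.01 and 0.02. The distance between the highest and the lowest probe set of a gene had a median of 0.08 and was under 0.1 for 14 genes. It was over 0.2 for 4, namely Prpf38b (0.35), Srrm1 (0.33), Sf3b1 (0.33) and Hnrnpa1 (0.27). Each of these 4 also held a member at an unadjusted p under 0.05, so they were singled out by the same values, and no test was made. The position of each probe set on its transcript was not analysed here.

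The highest and the lowest probe set of each gene were picked by their sucrose minus control difference. A higher mean of the contrast after sucrose was therefore fixed beforehand. For Srrm1 the highest minus the lowest probe set was between 0.169 and 0.464 in sucrose arrays and between -0.156 and 0.155 in controls, without overlap. For Prpf38b it was between 0.152 and 0.460 and between -0.143 and 0.213, for Sf3b1 between 0.103 and 0.813 and between -0.164 and 0.206, and for Hnrnpa1 between 0.108 and 0.588 and between -0.172 and 0.294. In these 3 genes the groups overlapped. The highest Srrm1 probe set, 1377914_at, was already without overlap on its own. The like share over other genes with several probe sets was not computed.

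**Figure D4:**
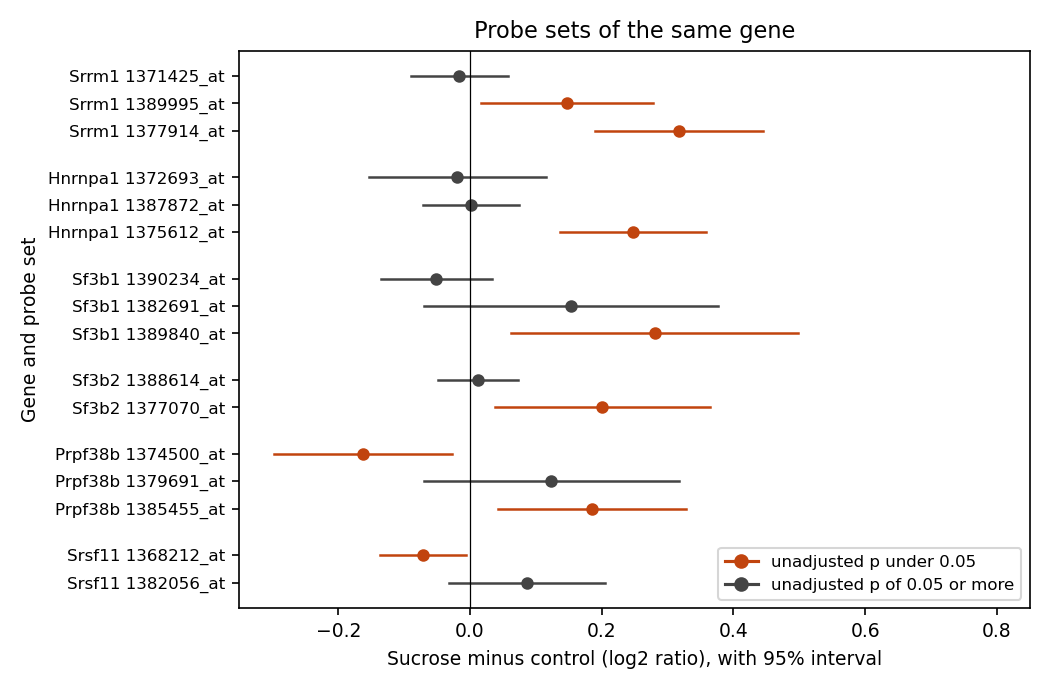
Difference between sucrose and control arrays (log2 ratio, x axis) with its 95% interval for each probe set of 6 genes (y axis), coloured where the unadjusted p was under 0.05. Each gene has a probe set near or below 0 beside a higher one, as in Srrm1 with -0.02 and 0.32.

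The 6 higher members, chosen for being higher after sucrose, had the same lowest array. Control array 5 was the lowest of the 12 arrays for 6 of 6, and for 12.1% of all probe sets. Sucrose array 1 was the highest for 4 of 6, and for 10.7% of all probe sets, while the order of the arrays in between varied among the 6. The choice of the 6 favours a control array as lowest and a sucrose array as highest. Shares over all probe sets, which were not chosen so, are therefore not a like background. Of the 6, 2 are probe sets of Srrm1. Their mean reached 0.423 in sucrose array 1, and the remaining 5 of that group had 0.115 to 0.252. It was -0.193 in control array 5, and the remaining controls had -0.0330 to 0.111. The same arrays stood at the ends of the spike-in level, the mean of 18 bacterial and phage hybridisation controls, which was highest in sucrose array 1 (0.183) and lowest in control array 5 (-0.116). Sucrose array 1 also had the lowest 3-prime minus 5-prime value of Gapdh and beta-actin, a measure of RNA integrity, at -0.137 against -0.0383 to 0.0842 elsewhere. Its low value stands for relatively more 5-prime signal, not more 3-prime signal. When the fit included the spike-in level, the 6 differences ran from 0.11 to 0.27, and 5 kept an unadjusted p under 0.05. Without both of these arrays they ran from 0.10 to 0.27 and 3 did, which were Srrm1 1377914_at (0.27), Hnrnpa1 1375612_at (0.19) and Sf3b1 1389840_at (0.15).

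Cell type markers also differed between these arrays. The mean of 8 astrocyte markers, 7 of them higher, ran from 0.0922 to 0.353 in sucrose arrays. In controls it ran from -0.212 to 0.0669, so the groups did not overlap. Sucrose array 1 was highest and control array 5 lowest. Choroid plexus and ependyma markers stood at 1.33 in sucrose array 1 and from -0.255 to 0.374 elsewhere in that group, with 6 of 6 higher, and ran from -0.190 to 0.191 in controls. For oligodendrocytes 9 of 9 markers were higher, and their mean ran from -0.179 to 0.463 after sucrose and from -0.111 to 0.0985 in controls. In the other direction, 1 of 8 markers of striatal and central amygdala neurons was higher, with -0.276 to 0.117 after sucrose, lowest in sucrose array 1, and -0.114 to 0.106 in controls. For pallial excitatory neurons 3 of 7 were higher, with -0.0300 to 0.165 after sucrose and -0.0906 to 0.0785 in controls. The groups overlapped for every marker set except astrocytes. For GABAergic neurons 5 of 8 were higher, with -0.0314 to 0.0533 after sucrose and -0.0802 to 0.0770 in controls. Microglia markers (5 of 9 higher) ran from -0.0419 to 0.00700 and from -0.0972 to 0.0592, and those of endothelium (3 of 7 higher) from -0.0848 to 0.0551 and from -0.117 to 0.0963. The part of these markers in the differences of the splicing genes was not tested.

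Genes that act beside these families were close to the background too, apart from a list of 11 genes with 1 call. Each gene was taken by its most variable probe set, and over all genes taken so 5.11% were higher and 3.19% lower at an unadjusted p under 0.05. Of 43 other splicing regulators 3 were higher (6.98%) and 0 lower. They were Elavl1, which stabilises AU-rich messenger RNA (0.19 ± 0.07), Celf2 (0.08 ± 0.04) and Mbnl2 (0.11 ± 0.05), which sets adult splicing patterns in brain. The coactivator Rbm39 followed with 0.15 ± 0.07. Of 11 kinases and phosphatases of SR proteins, Prpf4b among them, 0 were higher and 1 lower (9.09%). That share is above the background but rests on 1 gene, the kinase Srpk3 at -0.17 ± 0.07. Clk2 and Dyrk1a, which phosphorylate SR proteins, differed by -0.03 ± 0.03 and 0.03 ± 0.04.

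Of 66 other core spliceosome proteins 4 were higher (6.06%) and 2 lower (3.03%). Luc7l3, a relative of a yeast U1 protein, had the lowest p. Its probe set ran from 0.11 to 0.25 in sucrose arrays and from -0.08 to 0.09 in controls, without overlap. The difference was 0.19 ± 0.04 (adjusted p = 0.249). Coil, the marker protein of Cajal bodies, differed by 0.10 ± 0.03, Smndc1 by 0.10 ± 0.04 and the speckle protein gene Son by 0.12 ± 0.05. The 2 lower genes were Dhx38 at -0.08 ± 0.03 and Sugp2 at -0.07 ± 0.03, the latter with 2 of 2 probe sets below 0. For Son 2 of 5 probe sets went the same way, for Luc7l3 and Elavl1 2 of 3, for Celf2 3 of 4 and for Rbm39 4 of 5, while for Mbnl2 4 of 4 did. None of these list genes had an adjusted p under 0.05, and the medians of the 3 lists were -0.00, -0.01 and -0.01.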

How the data were processed

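RNA of 12 pools was hybridised to Affymetrix rat arrays, and per the submitters' processing notes probe sets were summarised with RMA, with no version stated there. The deposited values are linear ratios, each an array's signal over the mean of the controls: that mean was 1 within 2e-07 for each probe set. A second deposited table gives mean ratios and a p-value for 145 probe sets, per the file headers.

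The deposited ratios were put on the log2 scale, and group was the only term of a two-sided limma fit (version 3.58.1, R 4.3.3, lmFit followed by eBayes with no trend). Benjamini-Hochberg adjustment ran over 31042 probe sets, after 57 manufacturer controls were set aside, with a threshold of 0.05. Intervals are 95% intervals of that fit. The procedure was run on simulated data with independent noise, to check that large added differences were called. That run was not used to judge differences as small as those of the members. Symbols came from the platform annotation, and all 110 members matched the RefSeq table by gene identifier with 0 symbols changed. The arrays' total signal is not kept in ratios, so detection was not assessed.

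Members and lists were chosen with earlier results of these data known. Members were named where the unadjusted p was under 0.05, the groups did not overlap or the deposited table held them. Also named were the extremes and lowest p of each prefix, the 3 most variable and all probe sets of genes that differed in direction. Up to 4 genes per list were named, and in the core spliceosome list the 2 lower genes as well. Other members are named to account for the families. Alternatives were a replicate block, other scaling, variance and weighting choices, 2 covariates, fewer probe sets and each array left out. Leaving out sucrose array 1 and control array 5 together was chosen after seeing the data.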

Additional observations from a re-analysis of the deposited data

Results flagged for a closer look

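An array is given here where its gap to the nearest other array of its group passed Dixon's 95% critical value. This held in 7 of 90 sets of 6 arrays. At 1 in 20, about 4 would be reached by chance in sets not chosen by their values. Some of these sets were named for a wide spread or an extreme difference, so that number is not a like background. For Sf3b1 1389840_at sucrose array 1 was at 0.782, with the other sucrose arrays from 0.118 to 0.279. For Prpf38b 1385455_at control array 5 was at -0.207, below the -0.0187 to 0.0804 of the other controls. For Srrm1 1389995_at sucrose array 3 was at 0.270, above 0.0706 to 0.143. For Srsf10 1380269_at control array 3 was at 0.498, above -0.318 to -0.0303. For Dyrk1a 1370183_at sucrose array 2 was at 0.146, above -0.0378 to 0.0271. The Srsf median was -0.0644 in sucrose array 1, with the other sucrose arrays from -0.0153 to 0.00334. The Snrp median was 0.0374 in control array 5, with the other controls from -0.0169 to -0.00259.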

How the results depend on the processing

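The 9 members at an unadjusted p under 0.05 kept their direction in all 21 refits, and their lowest adjusted p was 0.127, so none passed in any. They were chosen from these same arrays, most of which each refit uses again, so a kept direction was likely beforehand. Without control array 4, 0 of the 3 lower ones kept an unadjusted p under 0.05. Over all probe sets calls stayed at 0 except for 1 without sucrose array 3 and 1 without sucrose array 5. Higher members at an unadjusted p under 0.05 were 6 in the main setting and 5 to 7 with 1 array left out, but 3 without sucrose array 1 and control array 5 together. Lower members were 3, and 1 to 4 with 1 array left out (1 without sucrose array 5), 5 with array weights and 1 with 1 probe set per gene. With 1 probe set per gene the Srsf median went from -0.0109 to -0.0445 and that of Srrm, then 3 probe sets, from -0.000195 to -0.0422.

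Directions near 0 were not stable. The Hnrnpa1 probe set 1387872_at was at -0.00434 with the RNA integrity covariate and ranged from -0.0198 to 0.0195 with 1 array left out, and 1372693_at from -0.0653 to 0.0120. Srsf10 1380269_at turned to 0.02 without control array 3 and ran from -0.141 to 0.0222 over the single arrays left out. Prpf38b 1379691_at was at -0.00243 without sucrose array 1 and control array 5 together, and from 0.0467 to 0.162 with 1 array left out. With 1 array left out Snrpd1 1379320_at ran from 0.0401 to 0.133, Snrnp48 1382466_at from 0.0140 to 0.0747 and Srrm2 1398940_at from -0.0796 to -0.0308. With the replicate block, the numbers of the labels as pairs, all 6 higher members and 1 of 3 lower ones had an unadjusted p under 0.05, 2 members in all were lower at that p, and 0 probe sets were called. Srrm1 1377914_at kept its difference of 0.32 (adjusted p = 0.382). Same-numbered arrays had residual correlations from -0.150 to 0.194, and 1 of 6 sucrose arrays correlated best with the control of its own number. These values gave no sign that the numbers pair the arrays, but so few correlations cannot exclude a weak pairing. Weak signals cannot be recognised in ratios, and how far background limits each probe set was not tested.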
